A study of Mus musculus with 16 samples.

Results

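The genes described here are the collagen chains and laminin chains of the mouse, taken by symbol as every gene named Col with a number, the letter a and a number, or Lam with a, b or c and a digit. The rule found 47 genes of 21634 named on the arrays, with 2571 of 303629 probe sets. A probe set is a small group of array probes that read 1 stretch of a transcript. Of the 47 genes, 45 had at least 3 probe sets above the floor and were tested among 14570 genes. Col10a1 and Col28a1 had 2 probe sets above the floor each, and their levels are given from all their probe sets, without a test. The chains Lamb1 and Col26a1 are listed under the older symbols Lamb1-1 and Emid2, which the rule does not match.

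The study measured total RNA of whole brain and spinal cord from CD1 mouse embryos at E18.5, late in gestation, on Affymetrix exon arrays. CD1 is an outbred stock. Each tissue had 4 wild type embryos and 4 embryos with both Nova1 and Nova2 knocked out, called double knockout here, with 1 array per biological replicate. Nova1 and Nova2 are neuronal RNA-binding proteins that regulate splicing. The labels name neither the exons removed by the knockout alleles nor any promoter or Cre that would limit them to certain cells.

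Collagens are triple helices of 3 chains secreted into the extracellular matrix. Fibrillar collagens form the tensile fibres of bone, tendon, dermis and meninges, fibril-associated collagens sit on those fibres, and type IV collagen builds the sheet of every basement membrane. Laminins are heterotrimers of an alpha, a beta and a gamma chain that assemble into the same membrane, which in the nervous system lies at the pial surface, around vessels and around nerves and muscle fibres. Fibrillar collagens are made largely by fibroblasts, bone cells and other mesenchymal cells, and basement membrane chains also by vessels and glia.

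Pairs of type IV collagen genes lie head to head, so that their first exons face each other. The promoter windows of Col4a1 and Col4a2 are shown because they overlap by 78 bases, at chr8:11312777-11312854. They run from 250 bases before to 50 bases after the start site, 5′ to 3′ on the strand of the gene, from RefSeq on GRCm38.p6. In all, 35 of the 47 genes matched the promoter table. Capitals mark matches, on either strand, to 3 promoter motifs: the TATA box as TATAAA, the CCAAT box by its 5 letters, and the GC box as GGGCGG.
Col4a1 (chr8:11312777-11313076, minus strand): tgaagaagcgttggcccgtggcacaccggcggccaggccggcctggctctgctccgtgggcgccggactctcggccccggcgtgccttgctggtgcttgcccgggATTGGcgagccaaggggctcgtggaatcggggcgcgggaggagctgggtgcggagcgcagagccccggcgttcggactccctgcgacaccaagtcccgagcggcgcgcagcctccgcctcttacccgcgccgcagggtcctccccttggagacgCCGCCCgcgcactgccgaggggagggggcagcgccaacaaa
Col4a2 (chr8:11312555-11312854, plus strand): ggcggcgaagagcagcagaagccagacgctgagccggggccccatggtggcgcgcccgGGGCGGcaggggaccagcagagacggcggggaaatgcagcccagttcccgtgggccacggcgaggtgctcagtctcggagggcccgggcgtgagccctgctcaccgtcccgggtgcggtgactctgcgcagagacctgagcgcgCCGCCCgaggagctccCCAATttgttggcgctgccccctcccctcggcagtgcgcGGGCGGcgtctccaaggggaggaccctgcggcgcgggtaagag

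Windows are likewise shown for Col1a2, Col3a1 and Col10a1, whose levels differed most between single spinal cord arrays among the genes with an entry.
Col1a2 (chr6:4505368-4505667, plus strand): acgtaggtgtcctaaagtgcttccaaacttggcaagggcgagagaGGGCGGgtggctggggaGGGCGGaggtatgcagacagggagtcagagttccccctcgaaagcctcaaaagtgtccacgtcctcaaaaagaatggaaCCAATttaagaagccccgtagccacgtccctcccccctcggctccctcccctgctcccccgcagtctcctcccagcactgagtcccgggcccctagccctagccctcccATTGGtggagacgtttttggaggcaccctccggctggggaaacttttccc
Col3a1 (chr1:45311288-45311587, plus strand): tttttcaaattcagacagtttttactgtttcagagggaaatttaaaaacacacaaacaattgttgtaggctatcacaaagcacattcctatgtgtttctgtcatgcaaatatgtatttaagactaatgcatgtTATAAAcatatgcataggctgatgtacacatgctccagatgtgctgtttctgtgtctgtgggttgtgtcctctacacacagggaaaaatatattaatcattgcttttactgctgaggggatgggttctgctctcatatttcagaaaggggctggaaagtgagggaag
Col10a1 (chr10:34389731-34390030, plus strand): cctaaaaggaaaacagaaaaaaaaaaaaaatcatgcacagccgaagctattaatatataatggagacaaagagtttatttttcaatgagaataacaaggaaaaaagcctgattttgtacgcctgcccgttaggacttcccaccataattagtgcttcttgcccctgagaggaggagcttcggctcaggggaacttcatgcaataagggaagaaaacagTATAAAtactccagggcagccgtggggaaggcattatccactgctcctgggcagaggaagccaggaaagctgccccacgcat

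The Col4a1 window has a GC content of 74% and that of Col4a2 73.7%, without TATAAA, while those of Col3a1 (37.7%) and Col10a1 (44.3%) each hold 1 TATAAA, at -117 and -32 from the start site. Col1a2 (61%) holds GGGCGG at -205 and -188 and CCAAT at -109, with a second match on the other strand at 1. Among all 32851 promoter windows of this length, 13.6% hold TATAAA, 37.4% CCAAT and 35.7% GGGCGG. Of the 39 windows of collagen and laminin genes 5, 12 and 22 do. These are matches of letters and no measurement of binding.

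A gene's level is the median of log2(intensity + 16) over its probe sets above a floor of 6.73. The floor was set at the middle of the mean values of all probe sets on the arrays. A probe set was kept by its mean over all arrays, so it could pass through brain or cord alone. Counts of probe sets higher in cord or brain are thus not independent of the floor. All levels and differences below are on this log2 scale, which understates changes of dim genes. Median intensity was 72.3 to 82.9 on brain arrays and 99.5 to 116.2 on cord arrays (scaling between arrays: not given in the sources used here). Nova1, a targeted gene, fell by 5.03 in double knockout brain, and in cord its difference was -5.31. The tissue labels were checked on 12 Hox genes, with a mean level of 6.13 to 7.25 on brain arrays and 9.31 to 9.68 on cord arrays. The lowest mean was that of wild type brain 4. Hoxa5 was at 5.15 on that array and 8.66 to 9.88 on the other brains, and Hoxb5 at 5.72 against 7.54 to 8.77.

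Several arrays stood apart in their content of other tissue. The mean level of 14 measured of 15 skeletal muscle markers was 9.88, 7.56, 7.62 and 9.18 on wild type cords 1 to 4 and 7.36, 9.36, 7.59 and 8.78 on double knockout cords 1 to 4, against 6.98 to 7.13 on brain arrays. Wild type cords 1 and 4 and double knockout cords 2 and 4 were thus rich in muscle RNA. Fits below without these 4 keep only wild type cords 2 and 3 and double knockout cords 1 and 3. For cartilage and bone, of which 8 of 14 markers were measured, the mean was highest on double knockout cord 2 (8.28) and wild type cord 4 (8.25), with the other 6 cords at 7.91 to 8.11. That order rests on Ibsp, a bone matrix gene: without it, a setting chosen after seeing the data, the mean of the other 7 was highest on wild type cord 3 (8.18) and at 8.04 and 8.10 on those 2 arrays. For fibroblasts and meninges, with 11 of 13 markers measured, it was highest on double knockout cord 4 (8.50) and cord 2 (8.21), with the other cords at 7.58 to 7.94 and the brain arrays at 8.54 to 8.87. In brain, telencephalon markers were low on wild type brain 3 (7.51) and double knockout brain 3 (8.22). In such bulk RNA, fewer cells of a type and less RNA per cell cannot be told apart.

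Of the 45 tested genes the fibrillar chains Col1a1, Col1a2 and Col3a1 had the widest ranges over the cord arrays. Col1a1, the alpha1 chain of type I collagen and the main collagen of bone, was at 9.66, 9.45, 9.87 and 10.51 on wild type cords 1 to 4 and at 9.55, 11.59, 9.44 and 10.63 on double knockout cords 1 to 4. Its partner chain Col1a2 was at 9.36, 9.36, 9.70 and 10.24 and at 9.46, 11.19, 9.09 and 10.45. Both chains were high on the same 3 arrays, double knockout cord 2 first, and the genotypes overlapped. Of the 55 Col1a1 probe sets above the floor, 55 were highest of the 8 cords on double knockout cord 2, and of the 58 of Col1a2, 57 were. In brain the 8 arrays spanned only 0.40 for Col1a1 and 0.59 for Col1a2, against 2.16 and 2.10 in cord.

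Col3a1, the type III chain of vessels, dermis and meninges, had another order. It was at 9.04, 8.62, 9.18 and 9.26 on the wild type cords and at 8.85, 9.85, 8.22 and 9.91 on the double knockout cords. Here double knockout cords 2 and 4 were about level, and the lowest and the highest arrays were both double knockouts. Col2a1, the collagen of cartilage, was high on wild type cord 4 (8.73) and double knockout cord 2 (8.91) and at 7.84 to 8.20 on the other 6. Both are among the cords rich in muscle RNA.

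Col10a1, the collagen of hypertrophic cartilage at the growth plate, was high on 2 cords only. It was at 6.51, 6.70, 6.78 and 8.55 on wild type cords 1 to 4 and at 6.75, 8.01, 6.35 and 6.33 on double knockout cords 1 to 4. The 8 brain arrays were at 5.56 to 6.21, below the floor, and only the 2 high cords stood clearly above it. Of its 5 probe sets 2 lay above the floor. Both of these exceeded the median of the other cords on wild type cord 4, but only 1 did on double knockout cord 2. Ibsp, the bone sialoprotein of mineralising bone, was at 9.32 on wild type cord 4 and 9.95 on double knockout cord 2 and at 7.24 to 8.11 on the other 6 cords. Other genes of the cartilage and bone list were mixed. Lect1, the older symbol of Cnmd, shared this order, at 7.65 on double knockout cord 2 and 7.47 on wild type cord 4. The other cords were at 6.82 to 7.32 for it. Comp was highest on double knockout cord 2 (7.83) but lowest on wild type cord 4 (7.21). Acan was highest on wild type cord 3 (7.7), then double knockout cord 2 (7.68) and wild type cord 4 (7.54). Matn1 (8.32), Sox9 (7.53) and Snorc (8.41) were at their lowest cord level on double knockout cord 2. Runx2 was at 8.88 on double knockout cord 2 and wild type cord 4, within its range of 8.71 to 9.03 over the cords. Wild type cord 1, with the highest muscle mean, was at 9.66 for Col1a1 and 6.51 for Col10a1, within the range of the 4 muscle-poor cords. The part of bone or cartilage in these levels was not tested.

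The beaded-filament chains of type VI collagen, which surround muscle fibres and other cells, were highest on double knockout cords 2 and 4. Col6a1 was at 8.51, 7.99, 8.10 and 8.29 on the wild type cords and at 7.94, 8.63, 7.68 and 8.73 on the double knockout cords. Col6a3, the longest of these chains, was at 8.19, 7.65, 7.93 and 8.31 and at 7.55, 8.62, 7.77 and 8.73. Unlike type I collagen, both were also high on wild type cord 1, and Col6a2 was at 8.12 there against 8.52 on double knockout cords 2 and 4. Col12a1, a fibril-associated collagen of tendon and ligament, was highest on double knockout cord 2 (8.74) with the other cords at 7.36 to 8.17, and 46 of its 51 probe sets were highest there.

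Among the laminins the outlying array was another one. Lama2, the alpha chain of the muscle and Schwann cell basement membrane, was at 7.46, 7.15, 7.04 and 7.32 on the wild type cords and at 7.29, 7.75, 6.93 and 8.32 on the double knockout cords. Lama4, an alpha chain of vessels and nerve, was at 8.69, 8.51, 8.63 and 8.65 and at 8.53, 8.70, 8.32 and 9.13. Double knockout cord 4 was highest for both, at 47 of 48 Lama2 and 38 of 40 Lama4 probe sets. The meningeal transporter gene Slc6a13 was at 9.21 on that array and at 7.57 to 8.02 on the other cords, and Dcn, a proteoglycan of fibroblasts, at 10.24 against 8.53 to 9.42. Of the same marker list, Fmod, Islr and Aldh1a2 were also highest of the cords there. Lum (8.18) and Ogn (7.88) were highest on double knockout cord 2, and Pdgfra, Fbln1, Foxc1 and Foxc2 on wild type cords. Lama2 spanned 1.39 over the cords and 0.19 over the brains.

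**Figure D1:**
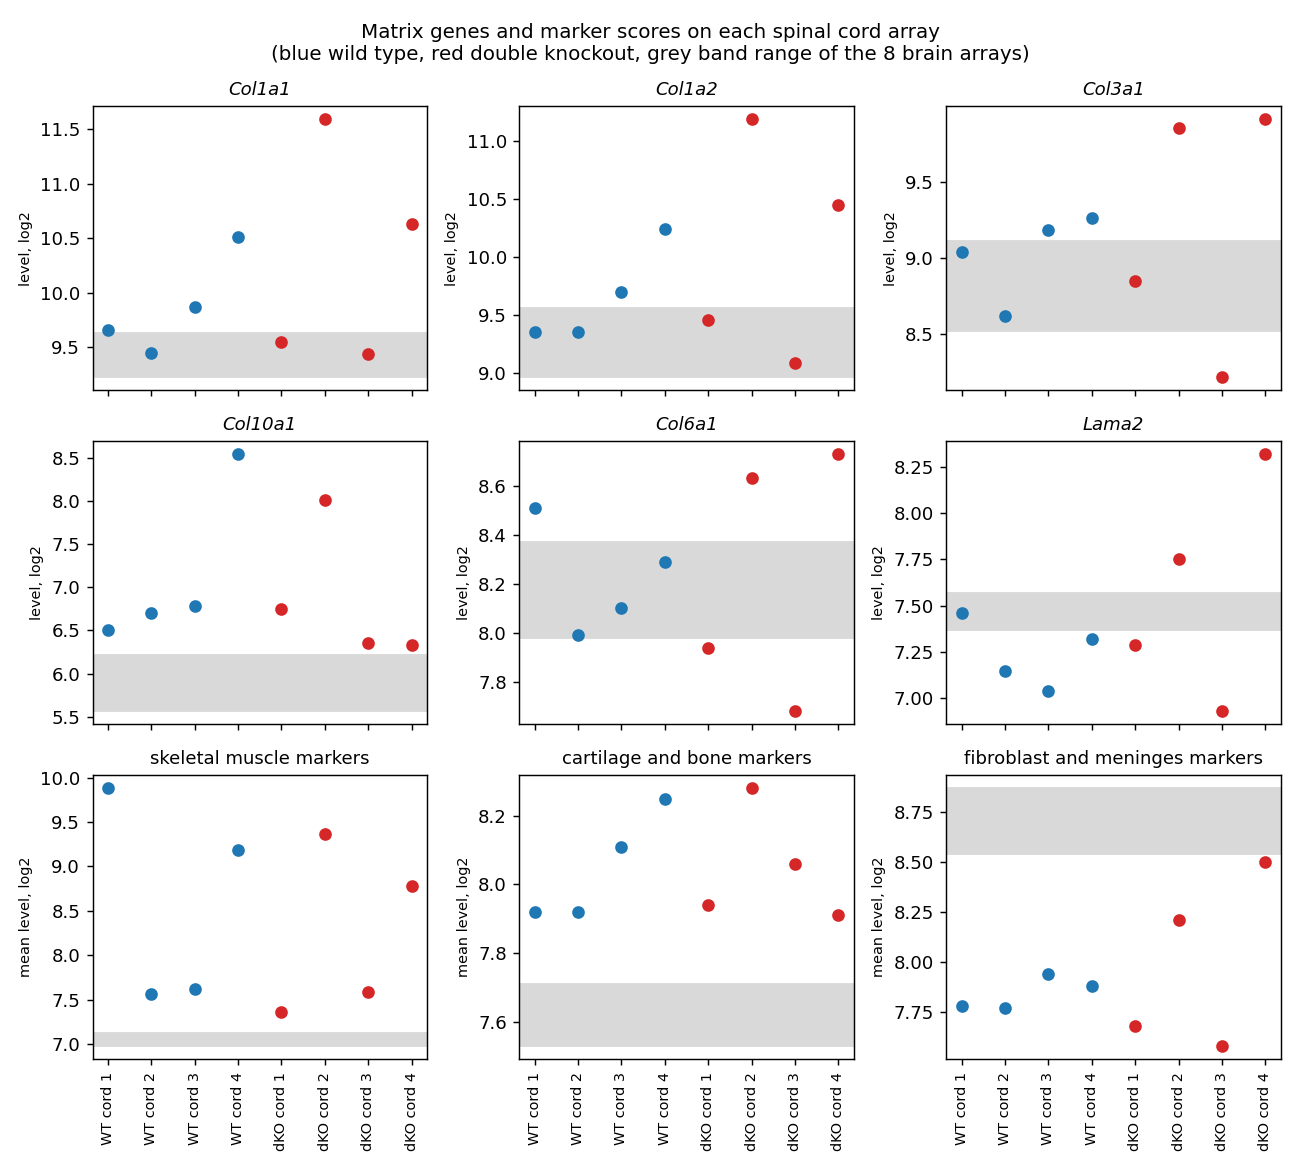
Level (log2) of Col1a1, Col1a2, Col3a1, Col10a1, Col6a1 and Lama2 and the mean level of 3 marker lists on each spinal cord array, wild type in blue and double knockout in red, with the range of the 8 brain arrays in grey; vertical axes differ and do not start at 0. Col1a1 reaches 11.59 on double knockout cord 2, while Lama2 peaks at 8.32 on double knockout cord 4 and the muscle markers at 9.88 on wild type cord 1.

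A range over 1 among the 8 cords was seen for 8 of the 45 tested genes (17.8%), against 6.01% of all genes tested: Col1a1, Col1a2, Col2a1, Col3a1, Col12a1, Col6a1, Col6a3 and Lama2. In brain none of the 45 had such a range, against 589 of all genes. The median range of the 45 was 0.49 in cord and 0.45 in brain, close to the 0.54 and 0.48 of all genes, so the wide spread lay in these chains and not in the group as a whole. Double knockout cord 4 held the highest cord level of 12 genes (26.7%, all genes 9.37%) and double knockout cord 2 of 10 (22.2%, all genes 6.86%). Double knockout cord 3 held the lowest of 14 (31.1%, all genes 18.1%). In brain, wild type brain 3 was the highest for 22 of the 45 (48.9%, all genes 16%) and double knockout brain 4 for 12 (26.7%, all genes 8.55%). Wild type brain 2 was the lowest for 14 (31.1%, all genes 7.69%) and double knockout brain 2 for 12 (26.7%, all genes 9.68%). Wild type brain 3 was also the array lowest in telencephalon markers.

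**Figure D2:**
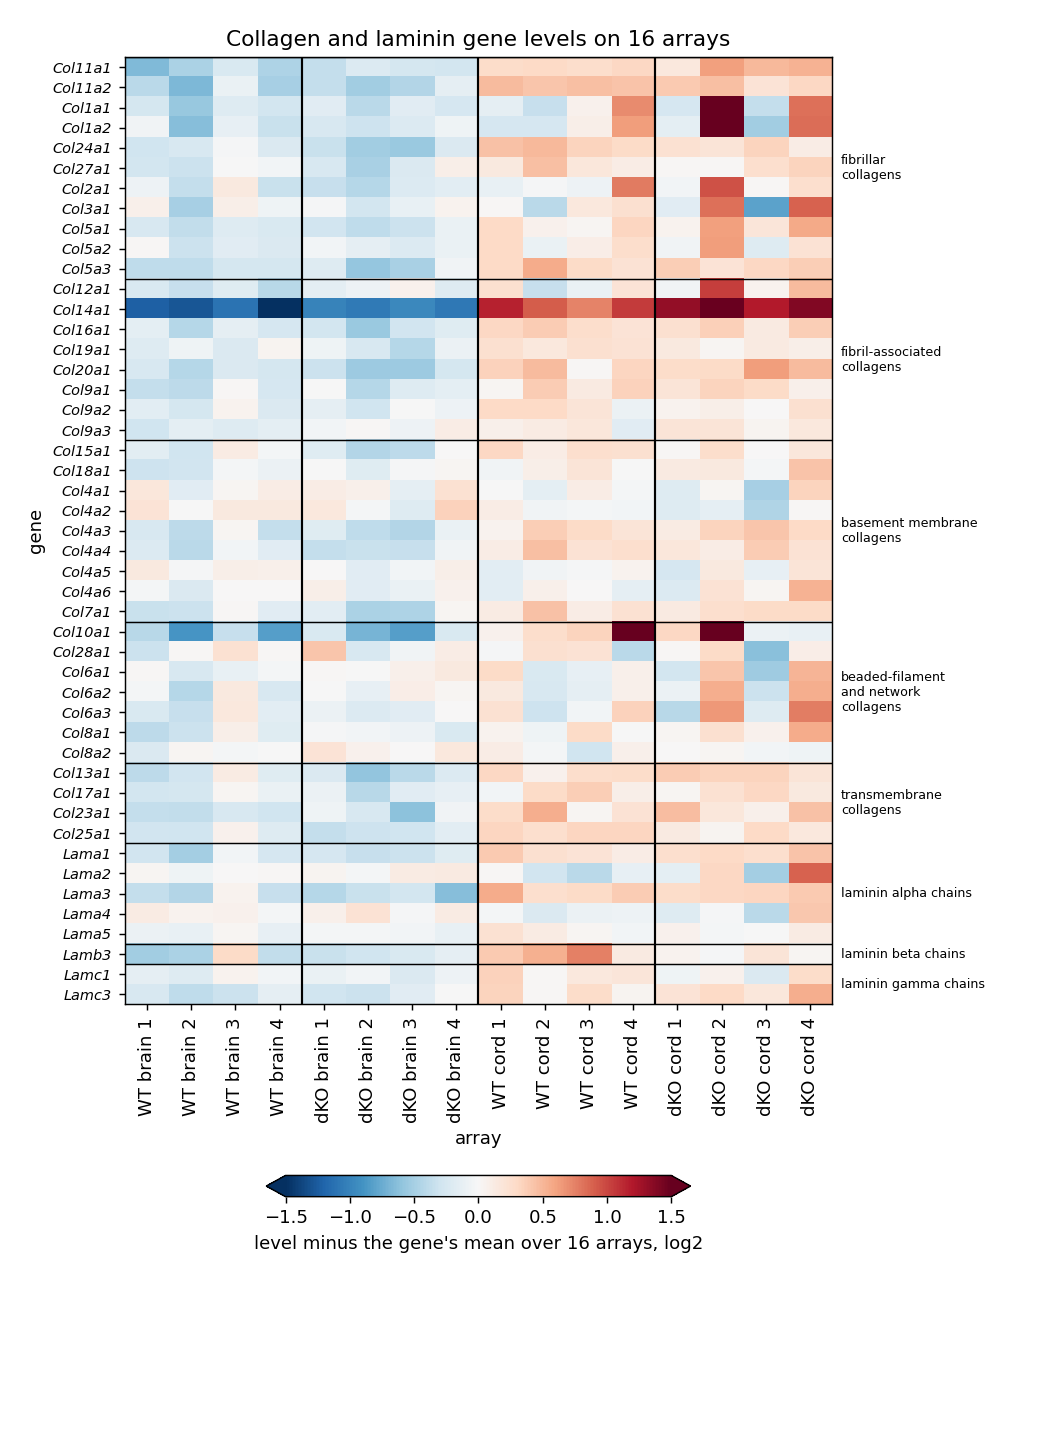
Level of each of the 47 genes on the 16 arrays, in log2 relative to the gene's own mean over all arrays (colour, clipped at 1.5 in either direction), grouped by role. Col14a1 is blue on all brain and red on all cord arrays, while Col1a1 and Col1a2 are dark on double knockout cord 2 (11.59 and 11.19) and Lama2 on double knockout cord 4 (8.32).

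The first comparison asked whether these genes change in brain without Nova1 and Nova2. None of the 45 was called, against 39 of 14570 genes (0.268%) called by limma at an adjusted p under 0.05. At an unadjusted p under 0.05 there were 3 of the 45 and 776 of all genes (5.33%). The median difference was 0.02 for the 45 and 0.02 for all genes. The 3 were Col14a1 (0.25), Col9a3 (0.20) and Col24a1 (-0.22), with adjusted p of 0.825, 0.917 and 0.919. By class, the medians ran from -0.08 for the 4 transmembrane collagens to 0.14 for the 5 tested beaded-filament and network collagens. Groups did not overlap for 2 of the 45, Col14a1 and Col9a3, both higher in double knockout, against 2.17% of all genes. Col9a3, a chain of the cartilage fibril surface, was at 7.83, 7.99, 7.94 and 7.98 in wild type and 8.09, 8.15, 8.06 and 8.24 in double knockout brain. By Xist and Y-linked genes all 4 double knockout brains came from females, against 2 of 4 wild type brains.

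In spinal cord 1 of the 45 was called (2.22%), against 820 of all genes (5.63%), of which 157 were higher (1.08%). At an unadjusted p under 0.05 there were 2 of the 45 and 2847 of all genes (19.5%). The median difference was 0.02 for the 45 and -0.03 for all genes. The called gene was Col14a1, a fibril-associated collagen also named undulin, known from tendon, skin and other connective tissue with aligned fibres. It was at 9.16, 8.92, 8.75 and 9.05 on wild type cords and at 9.32, 9.49, 9.20 and 9.39 on double knockout cords. Every double knockout cord lay above every wild type cord, by 0.38 between the means (SE 0.105, adjusted p = 0.0377, n = 4 per group), a 1.30-fold difference. Of its 43 probe sets above the floor, 42 were higher in double knockout cord, 13 of them without overlap. Of all genes, 3.9% were higher without overlap and 7.62% lower; among the 45 these were Col14a1 and, lower by a small step, the fibril-associated chain Col19a1 (-0.11, adjusted p = 0.578).

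Among the double knockout cords Col14a1 ran in the same order as Col1a1, with cord 2 highest, then 4, 1 and 3, while among the wild type cords it was highest on cord 1 and Col1a1 on cord 4. Its lowest double knockout level was 9.20 on cord 3, next to its highest wild type level of 9.16 on cord 1. The part of connective tissue RNA in this difference was not tested. In brain it was near the floor, at 6.78, 6.72, 6.90 and 6.51 in wild type and 7.0, 6.95, 7.04 and 6.93 in double knockout. Those groups did not overlap either, with 37 of 43 probe sets higher, but the difference of 0.25 did not pass (adjusted p = 0.825). The test of cord against brain differences gave none of the 45 and none of all 14570 genes, with no member and 1166 genes (8%) at an unadjusted p under 0.05. The call in cord ended in 9 of 20 alternative settings, with the difference at 0.31 to 0.45 and adjusted p up to 0.177. It ended without wild type cord 2 (adjusted p = 0.0842) or 3 (0.13), without double knockout cord 1 (0.058), 2 (0.132) or 4 (0.106), and without the 4 cords rich in muscle genes (0.177; difference 0.43). After quantile normalization it was 0.45 (adjusted p = 0.00857). With a term for sex it was 0.34 (adjusted p = 0.0607). By Xist and Y-linked genes wild type cords 2 and 3 and double knockout cord 4 came from males, the other cords from females.

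The second gene at an unadjusted p under 0.05 was Lamb3, the beta chain of laminin 332, which anchors epithelia. It was at 8.03, 8.18, 8.40 and 7.78 on wild type and at 7.70, 7.63, 7.84 and 7.67 on double knockout cords, a difference of -0.39 (SE 0.151, adjusted p = 0.152) with 1 array overlapping. Only 11 of its 29 probe sets lay above the floor, and 5 of those 11 were higher in double knockout cord. It passed after quantile normalization (-0.47, adjusted p = 0.0499), which called 2 of the 45 and 11.1% of all genes, and with the floor at the 75th percentile the difference was 0.08. Wild type brain 3 (7.93) stood above the other brains (7.12 to 7.51) for the same gene.

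For the chains that varied most between cords, the genotype difference did not pass. It was 0.43 for Col1a1 (SE 0.323, adjusted p = 0.518), 0.38 for Col1a2 (SE 0.309), 0.18 for Col3a1 (SE 0.266) and 0.33 for Lama2 (SE 0.192, adjusted p = 0.375). Without the 4 cords rich in muscle genes it was -0.17 for Col1a1, -0.25 for Col1a2, -0.36 for Col3a1 and 0.01 for Lama2, none called. The signs of the 3 collagens thus turned with the arrays left out. Col12a1 was at 0.38 (SE 0.18, adjusted p = 0.256) with 47 of 51 probe sets higher, and at 0.22 without those 4 arrays. For the type IV chains, Col4a1 was at -0.07 and Col4a2 at -0.19, and Col4a6 at 0.20, none of them called. Col23a1, the transmembrane collagen with the widest cord range, was at 8.22, 8.49, 7.98 and 8.16 in wild type and 8.41, 8.12, 8.02 and 8.39 in double knockout cord, a difference of 0.02.

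**Figure D3:**
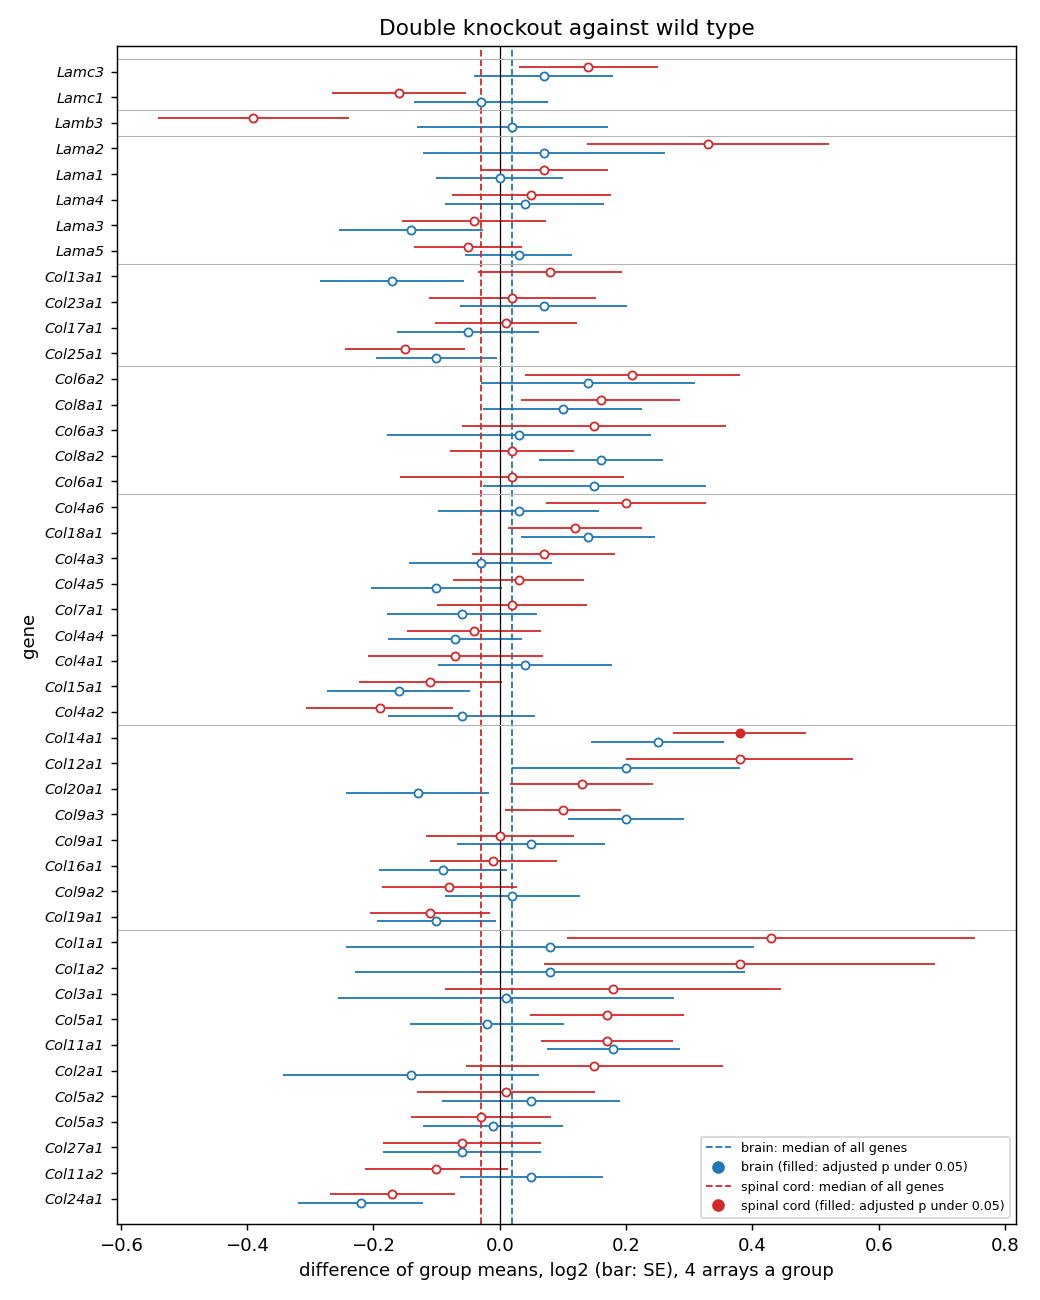
Double knockout minus wild type difference (log2, horizontal axis) of the 45 tested genes in brain (blue) and spinal cord (red), with standard errors, 4 arrays per group; filled points passed limma's test at an adjusted p under 0.05 and dashed lines are medians of all genes. Col14a1 in cord, at 0.38, is the one filled point, and the error bars of Col1a1 and Col1a2 are the widest.

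The next comparison set spinal cord against brain in wild type. Of the 45, 26 were higher in cord and none lower (57.8%), while all genes were called at 60.4%, 20.6% higher and 39.8% lower. The median difference was 0.32 for the 45 and -0.16 for all genes. Double knockout embryos, measured on other arrays, gave 26 higher and none lower as well, with all genes called at 66.4% (18.6% higher, 47.8% lower), and medians of 0.38 and -0.24. The same 22 genes were called in both genotypes. Col9a2, Col9a3, Lamb3 and Lamc1 were called in wild type alone and Col12a1, Col1a1, Col2a1 and Col8a1 in double knockout alone, and the difference between genotypes was not called for any of them. Without the muscle-rich cords Col12a1 (0.09), Col1a1 (-0.06), Col2a1 (0.27) and Col8a1 (0.14) were not called in double knockout. In wild type Lamc1 (0.17) was not called without them, while Col9a2, Col9a3 and Lamb3 still were. Groups did not overlap, with cord higher, for 19 of the 45 in wild type (all genes 14.6%) and 26 in double knockout (all genes 17%).

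Median intensity was higher on every cord array than on every brain array, at 99.5 to 116.2 against 72.3 to 82.9. Its part in the calls between tissues was not tested, and the counts moved with scaling. After quantile normalization 15 were higher and 2 lower in wild type (all genes 13.2% and 41%), and 16 and 3 in double knockout (all genes 11.5% and 48.8%). None of the 9 basement membrane collagens was then higher in either genotype. After subtracting each array's median gene level, a setting chosen after seeing the data, 31 were higher in wild type and 36 in double knockout, none lower, with 30.1% and 30.2% of all genes higher. Without the 4 cords rich in muscle genes 24 were higher and 1 lower in wild type and 20 and 5 in double knockout, with 20 genes called in both. In that setting all genes were called, in either direction, at 51.9% in wild type and 58.1% in double knockout. Genes called in both genotypes after quantile normalization numbered 14: Col11a1, Col11a2, Col13a1, Col14a1, Col16a1, Col20a1, Col23a1, Col24a1, Col25a1, Col5a3, Col8a2, Col9a1, Lama1 and Lama3. Col8a2 is the lower one of these, at 0.02 and -0.12 before that normalization.

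Col14a1 had the widest tissue difference of the 45. It was 2.24 higher in wild type cord (SE 0.105, adjusted p = 8.99e-12) and 2.37 higher in double knockout cord (adjusted p = 3.5e-12), at 43 of 43 probe sets in each. Relative to the median of all genes the wild type difference was 2.39. The brain levels of 6.51 to 7.04 are next to the floor and every cord level is 8.75 or above. Probe sets dim in brain could thus be kept through their cord values. The agreement of 43 of 43 is therefore not independent of the floor, and its part was not tested. Without a floor the wild type difference was 2.3. Leaving out the muscle-rich cords gave 2.10 for wild type and 2.28 for double knockout.

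Of the 11 fibrillar collagens 6 were higher in wild type cord and 8 in double knockout cord. Col11a1 and Col11a2, chains of the thin cartilage fibril that also occur in neural tissue, were 0.74 (SE 0.105) and 0.86 (SE 0.113) higher in wild type and 0.73 and 0.71 higher in double knockout. For Col11a2 the median change over its 38 probe sets was 0.57 in wild type. With the floor at the 75th percentile its wild type difference was 0.33 (adjusted p = 0.0257). Col11a1 was at 7.33 to 7.76 on wild type brains and 8.25 to 8.30 on wild type cords, with 54 of 54 probe sets higher. These cords were closely alike, unlike those for type I collagen. Col5a3, a minor chain that tunes fibril width, was 0.66 and 0.65 higher and Col24a1 0.58 and 0.62. Col1a1 was 0.40 higher in wild type (adjusted p = 0.295) and 0.75 in double knockout (adjusted p = 0.0475), but at 0.18 and -0.06 without the muscle-rich cords.

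Of the 8 fibril-associated collagens 7 were higher in wild type cord and 6 in double knockout cord, with a median of 0.40 and 0.44. After Col14a1 came Col20a1 (0.58, SE 0.113, and 0.83), Col16a1 (0.53 and 0.60) and Col9a1 (0.47 and 0.41). Col20a1 was at 7.34 to 7.55 on wild type brains and 7.79 to 8.24 on wild type cords. Col9a1, which coats cartilage fibrils, was at 0.36 without a floor (adjusted p = 0.0519).

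All 4 transmembrane collagens, which span the plasma membrane and can be shed, were higher in cord in both genotypes. Col23a1 was 0.58 higher in wild type and 0.54 in double knockout, and Col25a1, a neuronal collagen needed for motor innervation of muscle, 0.49 and 0.44. Col25a1 was at 7.55 to 7.92 on wild type brains and 8.11 to 8.18 on wild type cords, without overlap. With the floor at the 75th percentile it was 0.03 (adjusted p = 0.803). Col13a1, found at the neuromuscular junction, was 0.41 and 0.66 higher, and 0.34 in wild type without the muscle-rich cords (adjusted p = 0.0677). Col17a1, the hemidesmosome collagen, was 0.32 and 0.38 higher, and its wild type call ended after quantile normalization (0.13, adjusted p = 0.389) and without wild type brain 1 or 2 or wild type cord 2 or 3 (adjusted p from 0.0582 to 0.0712).

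Of the 9 basement membrane collagens 4 were higher in cord in each genotype. Col4a1 and Col4a2, the chains of the general type IV network, were not called: Col4a1 was at 8.36 to 8.70 on wild type brains and 8.39 to 8.64 on wild type cords, a difference of -0.05 (SE 0.138), and Col4a2 at 8.50 to 8.71 and 8.45 to 8.62, a difference of -0.12 (SE 0.116). In double knockout the differences were -0.15 (adjusted p = 0.332) and -0.26 (adjusted p = 0.0556). Without the muscle-rich cords both were called lower in double knockout cord, Col4a1 at -0.42 (adjusted p = 0.0204) and Col4a2 at -0.39 (adjusted p = 0.0302), and Col4a2 also after quantile normalization (-0.29, adjusted p = 0.0423). The double knockout cords in the fit without the muscle-rich arrays were cords 1 and 3 alone, and cord 3 was the lowest of all cords for both chains. Col4a3 and Col4a4, chains of the kidney, lung and inner ear network, were 0.46 (SE 0.113) and 0.46 (SE 0.106) higher in wild type cord and 0.57 and 0.49 in double knockout cord. Col4a5 (-0.12 and 0.02) and Col4a6 (0.01 and 0.17) were not called. Differences between the pairs themselves were not tested. The calls of Col4a3 (0.19, adjusted p = 0.181) and Col4a4 (0.26, adjusted p = 0.0664) in wild type ended after quantile normalization, which put Col4a5 at -0.35 (adjusted p = 0.0172) and Col4a6 at -0.32 (adjusted p = 0.0553). After median scaling Col4a1 was at 0.11 and Col4a2 at 0.03. Col7a1, the anchoring fibril collagen, was 0.43 higher and Col15a1 0.32 higher in wild type; after quantile normalization they were at 0.20 and 0.08, not called. The call of Col15a1 also ended without wild type brain 1 (adjusted p = 0.0515) or 2 (0.0824).

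Within the head-to-head pair shown above, the 2 chains shared their lowest cord and their highest brain, but not their highest cord or their lowest brain. Double knockout cord 3 was the lowest cord for both, at 8.04 for Col4a1 and 8.06 for Col4a2. Double knockout cord 4 was the highest for Col4a1 (8.87; 8.52 for Col4a2), while wild type cord 1 was the highest for Col4a2 (8.62; 8.53 for Col4a1). Double knockout brain 4 was the highest brain for both, at 8.76 and 8.85, while the lowest was wild type brain 2 for Col4a1 (8.36) and double knockout brain 3 for Col4a2 (8.31).

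Of the 7 beaded-filament and network collagens 5 were tested, and none was called in wild type. Col8a1, a network collagen of vessels and the corneal Descemet membrane, was 0.26 higher in wild type and 0.32 in double knockout cord (adjusted p = 0.0332), at 4 of 6 probe sets in each. Without the muscle-rich cords its double knockout difference was 0.14 (adjusted p = 0.401). Col28a1, a collagen of peripheral nerve, was at 6.38 to 7.03 on wild type cords and 6.47 to 7.02 on wild type brains, around the floor. The type VI chains were not called in either genotype, with medians for the class of 0.10 and 0.17. Without the muscle-rich cords Col6a1 was called lower in double knockout cord (-0.47, adjusted p = 0.00354; -0.04 with all arrays).

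Of the 5 laminin alpha chains 2 were higher in cord in both genotypes. Lama1, the alpha chain of the embryonic and pial basement membrane, was 0.51 higher in wild type (SE 0.101) and 0.58 in double knockout, at 69 of 71 probe sets in each. It was at 7.36 to 7.82 on wild type brains and 7.98 to 8.26 on wild type cords, without overlap. Lama3, the alpha chain of laminin 332 in epithelia, was 0.64 and 0.74 higher, from 6.83 to 7.32 on wild type brains to 7.52 to 7.83 on wild type cords. Lama2, Lama4 and Lama5, at -0.19, -0.16 and 0.16 in wild type, were not called; without the muscle-rich cords Lama2 was at -0.34 (adjusted p = 0.0231) in wild type and -0.40 (adjusted p = 0.00992) in double knockout, both called lower. Lama4 was called lower in double knockout as well (-0.40, adjusted p = 0.00752), and was at -0.20 in wild type (adjusted p = 0.125).

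The gamma chains Lamc1, the partner in most laminins, and Lamc3, of the retina and the cortical pial membrane, were 0.25 and 0.43 higher in wild type cord. Lamc1 was at 8.61, 8.55, 8.80 and 8.70 on the wild type brains and 9.09, 8.77, 8.90 and 8.93 on the wild type cords, overlapping at 1 array. Its call (adjusted p = 0.0455) ended in 13 settings, among them those without wild type brain 1, 2 or 4 and without wild type cord 1, 3 or 4 (adjusted p from 0.063 to 0.123), and without the muscle-rich cords (0.209). Lamc3 was 0.50 higher in double knockout cord and at 0.17 after quantile normalization in wild type (adjusted p = 0.173). Lamb3 was 0.72 higher in wild type cord (SE 0.151, adjusted p = 0.000555) and 0.32 in double knockout, not called there, and with the floor at the 75th percentile the wild type difference was 0.16 (adjusted p = 0.146).

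**Figure D4:**
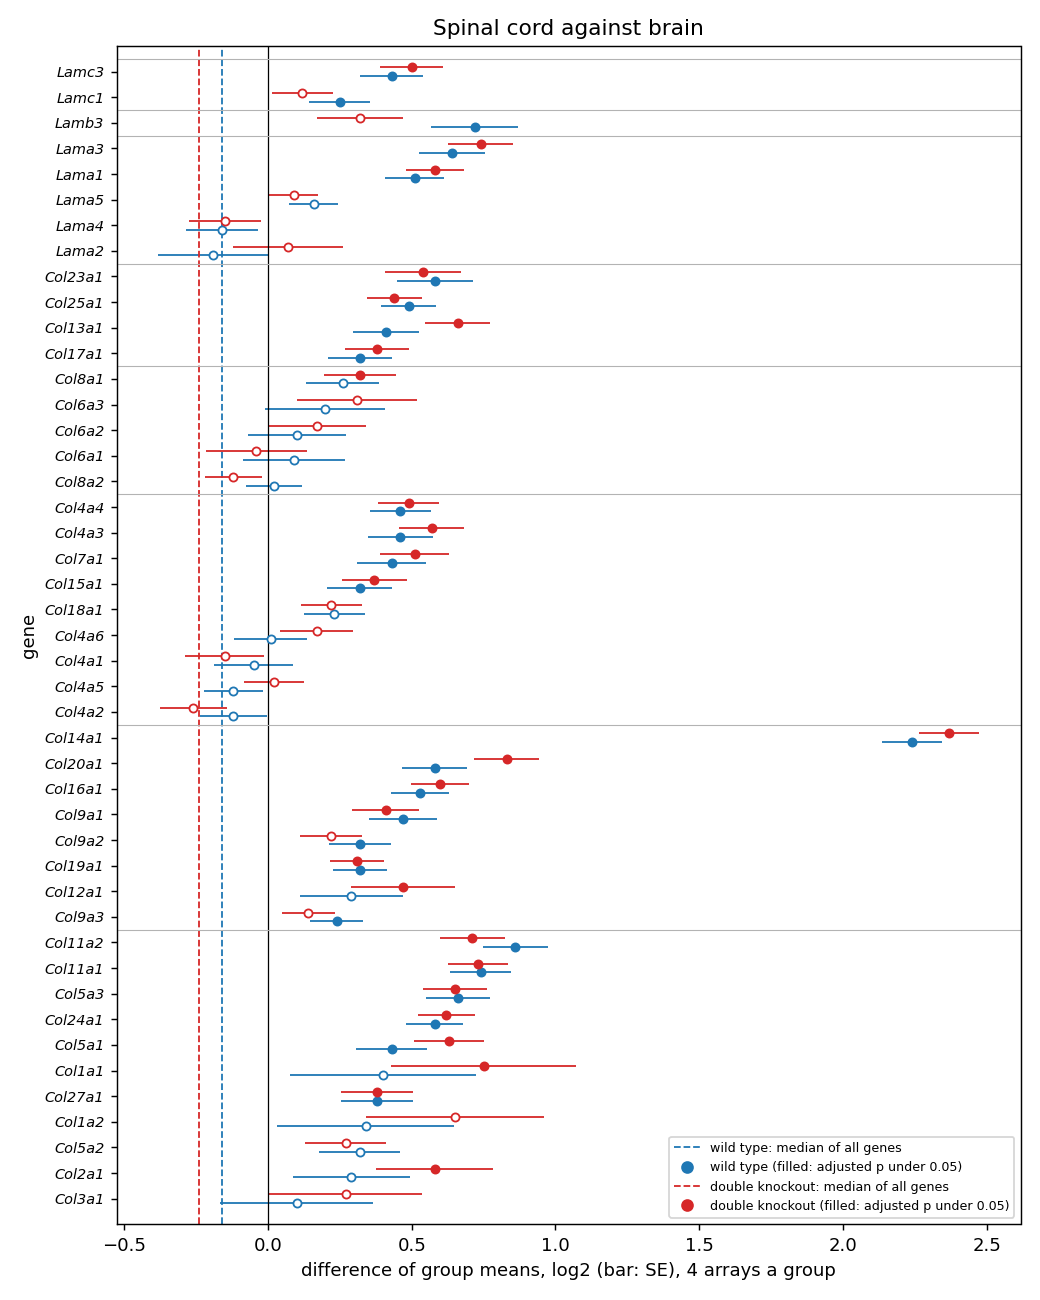
Spinal cord minus brain difference (log2, horizontal axis) of the 45 tested genes in wild type (blue) and double knockout (red), with standard errors, 4 arrays per group; filled points passed limma's test at an adjusted p under 0.05 and dashed lines are the medians of all genes, -0.16 and -0.24. Col14a1 stands at 2.24 and 2.37, and Col4a1, Col4a2, Lama2 and Lama4 lie between -0.26 and 0.07.

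The genes that act on collagens and laminins were read from lists. Between genotypes all genes were called at 0.268% in brain and 5.63% in cord. In double knockout against wild type, no gene was called of 14 tested for collagen folding and modification, 12 for cleavage and crosslinking, 6 basement membrane partners and 6 collagen-binding proteoglycans, in either tissue. Of 12 receptors 1 was called. Ddr1, a receptor tyrosine kinase that binds collagen, was at 9.34, 9.16, 9.34 and 9.11 in wild type and 9.79, 9.77, 9.86 and 9.58 in double knockout brain, 0.51 higher (SE 0.0938, adjusted p = 0.0138). In cord it was at 8.62, 8.80, 8.91 and 8.80 and at 9.14, 9.09, 9.14 and 9.07, 0.33 higher (adjusted p = 0.0441). The genotypes did not overlap in either tissue. The brain call ended in 10 of 19 settings (adjusted p up to 0.098), 5 of them fits that left out 1 array (wild type 2 or 4, double knockout 1, 2 or 3), and the cord call in 10 of 20 (up to 0.374), among them without wild type cord 1 or 2 or any 1 double knockout cord.

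Of 9 proteases and inhibitors 1 was called. Timp3, a metalloprotease inhibitor bound to the matrix, was at 10.16, 9.64, 9.92 and 9.61 on wild type cords and at 9.25, 9.34, 9.19 and 9.41 on double knockout cords. It fell by 0.54 on the log2 scale (difference -0.54, SE 0.119, adjusted p = 0.0108), without overlap, and was -0.56 without the muscle-rich cords (adjusted p = 0.103). In brain it was at -0.06. Emid2, the older symbol of Col26a1 and outside the rule, was at 8.76, 8.58, 8.69 and 8.56 on wild type cords and 8.24, 8.09, 8.13 and 8.56 on double knockout cords, a difference of -0.40 (adjusted p = 0.0319). It was chosen after its values were seen.

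Between tissues the partner lists held lower as well as higher genes. The 6 proteoglycans had 4 lower in wild type cord and none higher (median -1.29), and 4 lower in double knockout cord (median -0.96), while the 14 folding enzymes had 4 higher and 5 lower in each, where all genes were called higher at 20.6% and 18.6% and lower at 39.8% and 47.8%. The fibroblast and meninges list, which shares Dcn, Lum, Fmod and Ogn with the proteoglycans, had 6 of 11 lower and 1 higher in wild type cord. The muscle list had 13 of 14 higher and the cartilage and bone list 5 of 8 higher and 1 lower. The part of these tissues in the differences of collagens was not tested.

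The exon index asked whether single probe sets changed relative to their gene, as they would at an alternative exon. None of 1664 probe sets of 45 genes was called in double knockout brain, against 290 of 193126 (0.15%), with 54 (3.25%) at an unadjusted p under 0.05 against 3.3% of all. None was called in cord either, against 750 (0.388%), with 124 (7.45%) at an unadjusted p under 0.05 against 11.8% of all. The lowest adjusted p was 0.238 in brain and 0.0858 in cord. In alternatives the cord count was 0 to 5, the 5 after quantile normalization.

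Between tissues, 298 of the 1664 probe sets were called in wild type (17.9%), 147 higher and 151 lower in cord, against 22% of all probe sets. The named probe sets were chosen after their values were seen, and their exons are not given here. At Col14a1 probe set 4854214 the index was 0.63 to 0.83 on wild type brains and -1.76 to -0.83 on wild type cords, a difference of -1.91 (SE 0.17, adjusted p = 9.61e-06), where the gene itself is close to the floor in brain. At Col5a2, a chain of the type V fibril, probe set 5464196 went from a mean of -1.41 on wild type brains to 0 on wild type cords (difference 1.41), and from -1.49 to -0.07 in double knockout. At Lama4 probe set 4571127 the means were -2.40 and -1.33 in wild type and -2.16 and -1.45 in double knockout. At Lamc3 probe set 4484176 they were -0.88 and 0.01, and -0.56 and 0.06. The gene means on wild type brains were 7.61 for Col5a2, 8.78 for Lama4 and 7.26 for Lamc3. With those index means, these Col5a2, Lama4 and Lamc3 probe sets themselves lay below the floor of 6.73 in wild type brain. In each of the 4 named probe sets the double knockout means moved with tissue in the same direction as the wild type means. In double knockout brain the gene means were 7.66 for Col5a2 and 8.82 for Lama4. These Col5a2 and Lama4 probe sets thus lay below the floor there as well. They were kept through the cord arrays, double knockout cords included, which raised their mean over all arrays. For them the agreement between genotypes is therefore not independent of the floor.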

How the data were processed

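Total RNA of 16 embryos' samples was hybridised to exon arrays, 4 per tissue and genotype. The authors deposited 1 linear intensity per probe set and array; the submitters' processing notes name Affymetrix Power Tools, PLIER and build mm8, without settings or scaling. Probe sets with 1 symbol in the platform annotation were used, as log2(intensity + 16). A gene's level was the median over its probe sets above the floor of 6.73 (at least 3), and the exon index a probe set's value minus that level (genes with at least 5). The 4 group means were estimated from all 16 arrays in limma 3.58.1 (lmFit, eBayes; R 4.3.3), two-sided, with Benjamini-Hochberg adjustment over all features and 0.05 as threshold; the script was tested on simulated data. The number of arrays limits the precision.

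Members, lists and the rule for named genes (called in double knockout; up to 4 per class by tissue difference; widest cord range per class; facing type IV pairs; called partners) were chosen with earlier results of these data known. Lists covered collagen folding, cleavage, partners, proteoglycans, receptors, proteases, and, as markers, skeletal muscle, cartilage with bone, fibroblast with meninges, endothelial, mural, Schwann and ganglion, choroid plexus, pan-neuronal, telencephalon and Hox genes.

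Replicate numbers come from the titles. In brain, arrays of 1 number deviated together across genotypes (correlations 0.21 to 0.41 over genes), and in cord they did not (-0.12 to 0). The labels name no shared litter or day, so whether the numbers pair the arrays in this way is not known. By Xist and Y-linked genes, same-numbered wild type brain and cord arrays were of opposite sex, as were double knockout brain 4 and cord 4. Those arrays thus came from different embryos. The main tests held no term for the replicate number, and counts with such a term (replicate block) are given below.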

Additional observations from a re-analysis of the deposited data

Results flagged for a closer look

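Within groups of 4 arrays, 1 array stood far from the other 3 for 3 of 132 groups, over 33 genes; chance gives about 1 in 20. Col4a4 was at 7.69 on double knockout brain 4, with the other 3 at 7.39 to 7.41. Col4a2 was at 8.62 on wild type cord 1, with the others at 8.45 to 8.48. Col10a1 was at 8.55 on wild type cord 4, with the others at 6.51 to 6.78.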

How the results depend on the processing

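Over 37 results and 738 alternative values, 653 kept direction and side of the threshold, 63 no longer passed, 2 newly passed and 20 turned sign. The number of collagen and laminin genes called in double knockout cord, 1, was 2 after quantile normalization and 0 without a floor, with a sex term, without the 4 muscle-rich cords and with the 8 cord arrays alone, and 0 to 1 with 1 array left out. The wild type tissue count of 26 was 17 after quantile normalization. The exon index count in cord, 0, was 5 after quantile normalization, 1 without a floor and 0 to 2 with 1 array left out. The tissue exon index count of 298 was 135 with the floor at the 75th percentile, where fewer probe sets were tested, 192 without the muscle-rich cords and 193 with 8 arrays alone, where fewer arrays entered. All probe sets were called at 22.9%, 14% and 13.2% in these settings. The cause of the other shifts was not tested.

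Turned signs concerned differences that had not passed. In cord they were Col6a3 (-0.13), Col1a1 (-0.17) and Col23a1 (-0.02) without the muscle-rich cords, Col23a1 without a floor (-0.03) and Lamb3 with the floor at the 75th percentile (0.08). With 1 array left out Col6a3 ran from -0.04 to 0.35, Col23a1 from -0.06 to 0.11 and Col4a1 from -0.21 to 0.07. Between wild type tissues they were Col4a1 with the floor at the 75th percentile (0.07) and median scaling (0.11), Col4a2 with median scaling (0.03), Col4a5 without a floor (0.20) and median scaling (0.04), and Col4a6 after quantile normalization (-0.32) and with 1 array left out (-0.05 to 0.04).

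With the replicate block the counts were 0 in brain, 1 in cord, 25 between wild type tissues and 29 between double knockout tissues. All genes were then called at 58.2% between wild type tissues and 64.4% between double knockout tissues. Between tissues the block joins brain and cord arrays of 1 number, which in wild type came from different embryos. It ended the wild type tissue call of Lamc1 (adjusted p = 0.0525) and no other named call. Signal over background limits the dim genes: Col24a1 had 31.7% and Col4a6 32.4% of probe sets above the floor.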

Other observations

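Markers of vessels, nerve and other sources of basement membrane were measured beside these genes. All genes were called in double knockout against wild type at 0.268% in brain and 5.63% in cord. In double knockout against wild type, 0 of 10 endothelial genes were called in either tissue, with medians of 0.10 in brain and -0.05 in cord. Of 8 mural genes 1 was lower in cord (Cspg4 at -0.57, adjusted p = 0.00231; median of the list -0.09) and none was called in brain (0.09). Cspg4 also marks oligodendrocyte precursors. None of 7 Schwann and ganglion genes (0.01 in brain, 0.05 in cord), 9 choroid plexus genes (0.10 and -0.04) and 9 pan-neuronal genes (0.01 and 0.02) was called. Of 11 fibroblast and meninges genes 1 was higher and 1 lower in double knockout cord (median 0.29). Aldh1a2, a retinoic acid synthesis enzyme, was at 0.49 (adjusted p = 0.018) and the growth factor receptor gene Pdgfra at -0.62 (adjusted p = 0.00194). Which cells carry the lower Pdgfra and Cspg4 levels was not tested. Of 14 muscle genes none was called (median -0.30).

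Between tissues in wild type, 39.8% of all genes were called lower in cord and 20.6% higher, with a median of -0.16. Of 10 endothelial genes 6 were lower in cord and none higher (median -0.27, with Ramp2 at -1.01 and Tek at -0.64). In the same comparison 5 of 9 choroid plexus genes were lower and 1 higher (median -0.86). Of 7 Schwann and ganglion genes 3 were higher and 1 lower (median 0.28; Prph, a neurofilament of peripheral axons, at 1.63). Wild type brain 4 was at 7.11 for Prph, with the other brains at 8.19 to 8.82.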
